A study of Mus musculus with 2 samples.

Results

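The expression of 10 genes of the canonical Wnt pathway, taken by symbol from a table of 37172 genes, was described in single cells of mouse small intestinal organoids. All 10 symbols were found. They comprise 5 feedback genes, which the pathway itself switches on (Axin2, Rnf43, Znrf3, Sp5 and Nkd1), and 5 genes of signal reception and relay, called receptor and effector genes here (Lgr4, Lrp5, Lrp6, Tcf7l2 and Ctnnb1).

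Wnt ligands bind Frizzled receptors together with the co-receptors Lrp5 and Lrp6, and this stops the breakdown of beta-catenin, which then joins TCF factors on DNA and turns target genes on. R-spondins, bound by Lgr4 and Lgr5, strengthen the signal by holding back Rnf43 and Znrf3, a pair of ligases that remove Frizzled receptors from the surface. In the intestinal crypt this pathway maintains the stem cells, for which Lgr5 is a marker, and several of its targets are brakes on the pathway. Beta-catenin is controlled chiefly through breakdown of the protein, so the transcript of Ctnnb1 is no measure of signalling.

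Organoids, epithelial structures grown from isolated crypts, came from proximal small intestine of C57BL/6 wild-type mice, whose number and age are not given in the sources used here. Budding organoids grew in Matrigel, a basement membrane extract, under medium with EGF at 50 ng/mL, Noggin at 100 ng/mL and R-spondin1 at 400 ng/mL. Cystic spheres grew in collagen type I with all of these plus bovine serum albumin (1%), nicotinamide (10 mM) and the ligand Wnt3a itself (100 ng/mL). Cells were taken on day 4 after collagenase (0.5 mg/mL) for collagen or a recovery solution for Matrigel, tagged by culture, and sequenced as 1 pooled library.

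The comparison held 336 collagen cells and 1599 Matrigel cells, with medians of 124619 and 179044 counts per cell, and all 2090 cell barcodes of the expression table were also in the hashtag library. A further 139 cells named as doublets were left out. Each culture was 1 suspension, so nothing here has a replicate check, no test was run, and matrix, medium and release of the cells cannot be told apart. In both cultures all 5 epithelial markers (Epcam, Cdh1, Krt8, Krt18 and Vil1) reached 5 CPM (counts scaled to a sum of 1000000 per group of cells), while none of the 4 immune and 3 endothelial markers with an entry did. Levels are summed counts scaled to CPM with exact 95% Poisson intervals, which cover counting error only and are too narrow if PCR copies were counted. Ratios are log2 of collagen over Matrigel with 1 CPM added, which understates differences of low genes.

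Feedback genes were lower in collagen cells, by amounts from slight to about 10-fold, although only that culture received Wnt3a, whereas most receptor and effector genes were slightly higher. The median log2 ratio was -1.36 over the 5 feedback genes (range -3.34 to -0.34) and 0.42 over the 5 receptor and effector genes (range -0.33 to 0.88), beside -0.02 over all 10593 genes that reached 5 CPM in either culture. At least 2-fold lower were 3 of 5 feedback genes and 0 of 5 receptor and effector genes, against 8.91% of all tested genes. At least 2-fold higher was none of the 10 genes, against 8.21% of all tested genes. All members except Nkd1 reached 5 CPM in at least 1 culture, and all 10 are counted here.

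Axin2, a scaffold of the complex that breaks down beta-catenin and a widely used readout of the pathway, stood at 15.2 CPM (14.1 to 16.5) in collagen and 163 CPM (162 to 165) in Matrigel cells, a log2 ratio of -3.34 (-3.46 to -3.22). Per cell, percentile 10, the median and percentile 90 were 0, 0 and 47.1 CPM in collagen and 20.8, 152 and 325 CPM in Matrigel, so percentile 90 of collagen cells lay below the Matrigel median. With culture taken instead from a tag making up 60% of a cell's hashtag counts, 49 cells named as doublets joined the collagen cells, and the ratio was -2.65. Sp5, a transcription factor gene that Wnt signals induce, stood at 1.97 CPM (1.58 to 2.44) and 15.6 CPM (15.2 to 16.1), a log2 ratio of -2.48 (-2.73 to -2.23). Of the collagen cells 33 had a count of Sp5, and of the Matrigel cells 843. Both genes were thus low or not found in most collagen cells.

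The stretches upstream of the transcription start of Axin2 and Sp5, the feedback genes furthest toward Matrigel, are shown because TCF factors bind a core of known letters. CTTTGAA or CTTTGAT or CTTTGTA or CTTTGTT was searched on both strands, and capitals mark the matches. The windows are from RefSeq on GRCm38.p6, plus strand, at chr11:108920099-108920348 for Axin2 and chr2:70474673-70474922 for Sp5.
Axin2: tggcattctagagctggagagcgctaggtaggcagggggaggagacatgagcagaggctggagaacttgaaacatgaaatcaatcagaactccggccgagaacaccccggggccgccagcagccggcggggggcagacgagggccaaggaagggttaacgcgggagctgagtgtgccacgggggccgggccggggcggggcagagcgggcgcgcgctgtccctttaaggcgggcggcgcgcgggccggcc
Sp5: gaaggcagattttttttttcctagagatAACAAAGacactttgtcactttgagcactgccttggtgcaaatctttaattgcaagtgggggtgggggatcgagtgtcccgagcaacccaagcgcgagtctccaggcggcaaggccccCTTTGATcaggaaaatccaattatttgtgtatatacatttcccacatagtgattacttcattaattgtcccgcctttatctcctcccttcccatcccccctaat
Sp5 had 2 matches, AACAAAG (a reverse strand match) beginning at position -222 and CTTTGAT at -104 from the start, and the Axin2 stretch held none of these letters. In windows of 250 bases before to 50 after a start, 16.9% of 32851 RefSeq promoters held a match. Among the 7 members with an entry there, matches were in 2, Sp5 and Tcf7l2, the latter with CTTTGTT at -14 of its second listed start. A match is a description of letters and not of binding.

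The ligase pair differed from each other. Znrf3 stood at 5.24 CPM (4.58 to 5.98) in collagen and 15.0 CPM (14.6 to 15.5) in Matrigel cells, a log2 ratio of -1.36 (-1.56 to -1.16). Rnf43 stood at 43.9 CPM (41.9 to 45.9) and 56.2 CPM (55.3 to 57.1), a ratio of only -0.35 (-0.44 to -0.26), with cell medians of 21.4 and 45.6 CPM. Rnf43 in collagen was thus at 78.1% (73.4 to 83.0) of its Matrigel level, Znrf3 at 34.9% (29.6 to 41.0) and Axin2 at 9.33% (8.55 to 10.2). Of the values of Rnf43 above 0, 73.6% were whole numbers, against 95.4% for Axin2; with the whole part of each value alone the ratio of Rnf43 was -0.36. Nkd1, which encodes an inhibitor that binds Dishevelled, was barely found, with 16 counts in collagen and 213 in Matrigel cells (0.376 CPM, 0.215 to 0.611, and 0.747 CPM, 0.650 to 0.854).

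**Figure D1:**
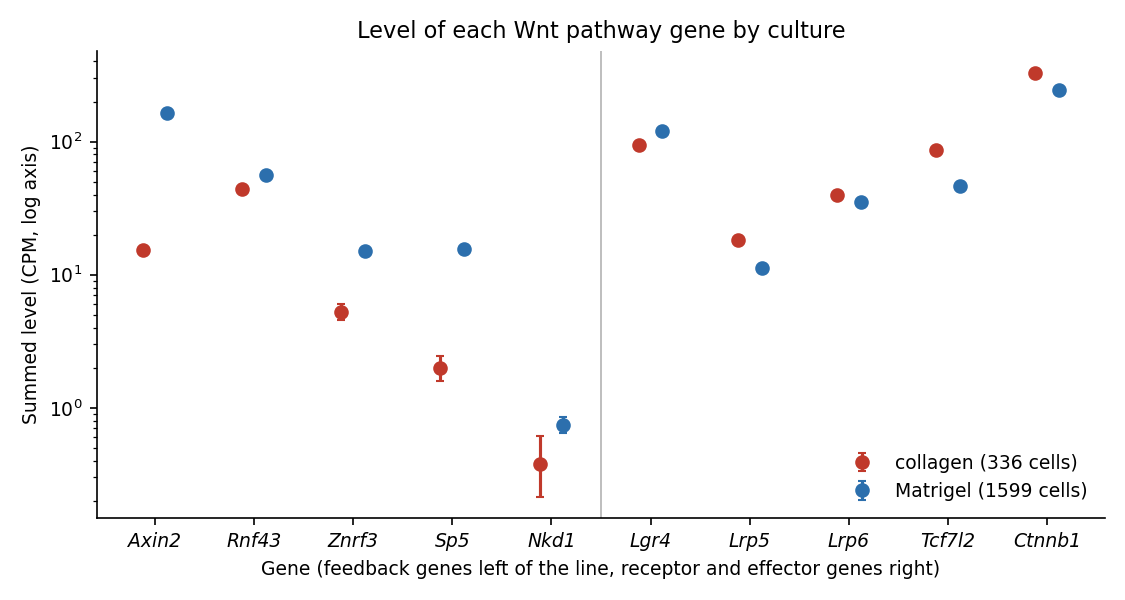
Summed level of each gene in CPM on a log axis for 336 collagen cells (red) and 1599 Matrigel cells (blue), with exact 95% Poisson intervals. Axin2, Sp5 and Znrf3 lay far lower in collagen (15.2 against 163 CPM for Axin2), while Tcf7l2 and Lrp5 lay higher.

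Among the receptor and effector genes, Tcf7l2 and Lrp5 had the largest ratios. Tcf7l2, the gene of the TCF factor that partners beta-catenin in the intestine, stood at 86.1 CPM (83.3 to 88.9) in collagen and 46.5 CPM (45.7 to 47.3) in Matrigel cells, a log2 ratio of 0.88 (0.80 to 0.95). Lrp5 stood at 18.3 CPM (17.1 to 19.7) and 11.2 CPM (10.8 to 11.6), a ratio of 0.66 (0.52 to 0.81). Its paralog Lrp6 was closer between the cultures, at 39.9 CPM (38.0 to 41.8) and 35.0 CPM (34.3 to 35.7), a ratio of 0.18 (0.09 to 0.28). Ctnnb1, the beta-catenin gene, stood at 328 CPM (322 to 333) and 245 CPM (244 to 247), a ratio of 0.42 (0.38 to 0.45), with a count in 334 of 336 and 1591 of 1599 cells. Lgr4, the R-spondin receptor found broadly in epithelium, was the only one of the 5 with a ratio below 0, at 94.9 CPM (92.0 to 97.9) and 119.6 CPM (118 to 121), or -0.33 (-0.39 to -0.27). From cell percentile 10 to 90, Tcf7l2 ranged over 0 to 221 CPM in collagen and 0 to 116 CPM in Matrigel. The range of Axin2 was 0 to 47.1 and 20.8 to 325 CPM. Percentile 10 was 0 in both cultures for Lrp5, Lrp6, Tcf7l2, Znrf3, Sp5 and Nkd1. Overlap of their ranges was thus fixed by cells without a count, and overlap is not read as a result for either set. The share of all genes with such overlap was not computed.

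Other genes moved with the culture too, and their part in these results was not tested. The 6 stem markers of a fixed list summed to 286 CPM in collagen and 2538 CPM in Matrigel cells, and the 6 fetal and regenerative markers to 957 and 26.7 CPM. Of the stem sums Olfm4 alone gave 31.2 and 1637 CPM. Ascl2, Smoc2 and Slc12a2 were lower in collagen too, while Cd44 was slightly higher there (62.7 and 58.2 CPM). The 10 enterocyte markers summed to 429 and 701 CPM, the 7 goblet markers to 1039 and 1190 CPM, and the 6 enteroendocrine markers to 655 and 134 CPM. The 5 Paneth markers summed to 1985 and 931 CPM, with Defa30 and Ang4 listed at 0 in collagen. Low values of Olfm4 (stem), Ly6a and Clu (fetal and regenerative), Agr2, Spink4 and Fcgbp (goblet), Chgb (enteroendocrine) and Lyz1, Defa24, Defa30 and Ang4 (Paneth) are absent from the deposited table, so those sums are less sure, and a 0 there is not a measured absence. Of the 6 fibroblast markers 1 reached 5 CPM in collagen and 0 did in Matrigel.

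The next question was whether the cultures differed among cells of like Lgr5 status. Cells were brought to an equal depth by drawing 77972 counts from each. Shallower cells, 72 of collagen and 122 of Matrigel, dropped out, and at least 1 Lgr5 count in the draw put a cell among those with Lgr5. There were 112 collagen cells with and 152 without Lgr5, and 1353 Matrigel cells with and 124 without. Before thinning, 160 of 336 collagen and 1490 of 1599 Matrigel cells had an Lgr5 count.

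Axin2 was lower in collagen cells whether or not Lgr5 was found. Among cells with Lgr5 it stood at 27.1 CPM (23.8 to 30.8) in collagen and 179 CPM (176 to 182) in Matrigel, a log2 ratio of -2.68 (-2.88 to -2.48), and -2.0 with the 60% hashtag rule. Among cells without Lgr5 it stood at 8.44 CPM (6.87 to 10.3) and 58.9 CPM (54.1 to 63.9), a ratio of -2.66 (-3.04 to -2.29). The collagen cells with Lgr5 therefore had less Axin2 than the Matrigel cells without it.

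Sp5 followed Axin2, with 2.98 CPM (1.94 to 4.36) against 17.0 CPM (16.3 to 17.8) in cells with Lgr5, a log2 ratio of -2.18 (-1.56 by the 60% hashtag rule), and 1.77 CPM (1.10 to 2.71) against 10.9 CPM (8.88 to 13.1) without Lgr5, a ratio of -2.10. Rnf43 hardly differed at like status, with 56.9 CPM (52.0 to 62.1) against 59.9 CPM (58.4 to 61.4) in cells with Lgr5 and 31.6 CPM (28.5 to 35.0) against 30.2 CPM (26.8 to 33.9) in those without. Its log2 ratios of -0.07 (-0.23 to 0.09) and 0.07 (-0.24 to 0.37) had intervals on both sides of 0. They turned sign, to 0.18 with at least 2 counts asked of Lgr5 in cells with it and to -0.03 at a hashtag share of 60% in cells without it. Znrf3 had a ratio of -1.34 (-1.77 to -0.91) with Lgr5 and -0.56 (-1.18 to 0.06) without, but the latter was -1.42 in another draw of the thinning and -1.29 at full depth, so it is poorly fixed at this depth. Nkd1 had 1 count in collagen cells with Lgr5 and 6 in those without.

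Over the 5 feedback genes the median log2 ratio was -1.34 among cells with Lgr5, beside 0.01 over all genes, and 3 of 5 were at least 2-fold lower, against 7.51% of all genes tested there. Among cells without Lgr5 it was -0.56, beside -0.03, with 2 of 5 at least 2-fold lower against 9.54%. That median, the value of Znrf3, was -1.29 at full depth and -1.42 in another draw of the thinning, where 3 of 5 were at least 2-fold lower. The receptor and effector genes had medians of 0.30 and 0.58, and none of the 5 was at least 2-fold apart in either class, against 15.7% of all genes with and 16.2% without Lgr5. Tcf7l2 had ratios of 0.91 (0.77 to 1.05) with and 0.63 (0.42 to 0.84) without Lgr5, and Lrp5 of 0.79 (0.51 to 1.07) and 0.61 (0.16 to 1.06). Lgr4 lay slightly below 0, at -0.13 (-0.25 to -0.02) and -0.20 (-0.38 to -0.03), with intervals that leave out the spread between cells. The former was -0.05 with at least 2 Lgr5 counts asked and at a hashtag share of 60%.

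**Figure D2:**
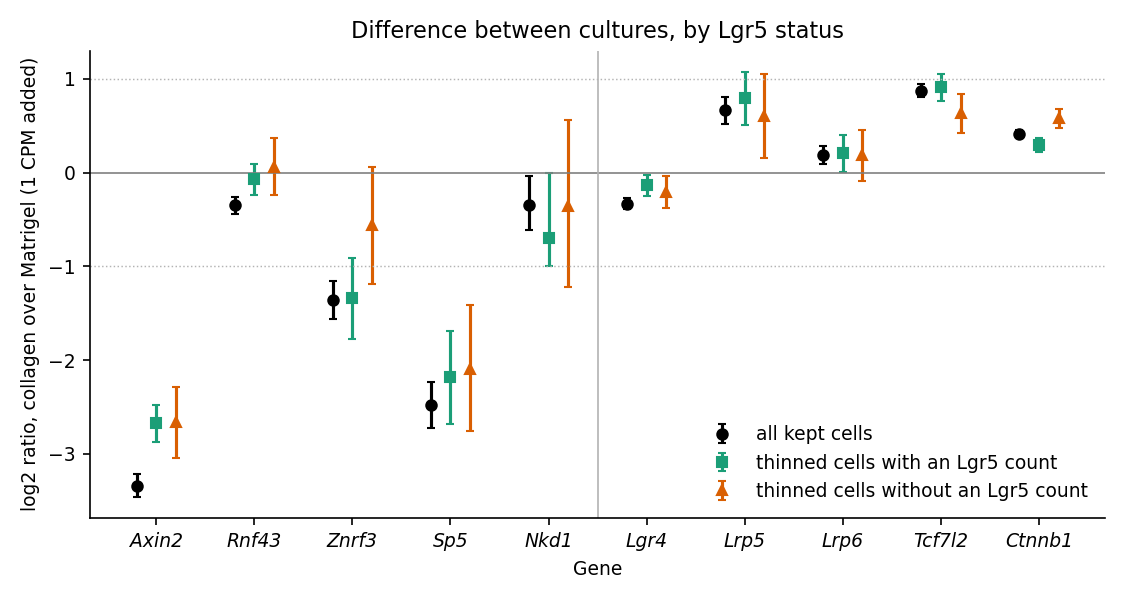
Log2 ratio of collagen over Matrigel for each gene among all kept cells (circles), thinned cells with an Lgr5 count (squares) and thinned cells without one (triangles), with bounds from exact 95% Poisson intervals and dotted lines at 2-fold. Axin2 lay at -2.68 and -2.66 in the classes with and without Lgr5, and Rnf43 at -0.07 and 0.07.

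Lgr5 levels within the class with Lgr5 were not equal, at 73.2 CPM in collagen and 151 CPM in Matrigel cells, so cells were also compared by the number of Lgr5 counts left after thinning. In cells with 5 to 14 Lgr5 counts, where the mean was 9.07 in 30 collagen and 9.14 in 642 Matrigel cells, Axin2 stood at 40.2 CPM (32.5 to 49.2) and 171 CPM (167 to 174), a log2 ratio of -2.06 (-2.39 to -1.74). In the same cells Rnf43 stood at 79.5 CPM (68.5 to 91.8) and 55.6 CPM (53.6 to 57.7), a ratio of 0.51 (0.24 to 0.77) toward collagen. Sp5, at -1.78 (-2.69 to -0.90), and Znrf3, at -1.43 (-2.32 to -0.57), lay below 0 too, but had a count in only 4 and 6 of the 30 collagen cells. Znrf3 had -1.51 (-2.21 to -0.83) at 1 to 4 Lgr5 counts and -0.10 (-0.96 to 0.68) at 15 or more, the latter from 12 collagen cells. Nkd1 had 0 counts in collagen cells with 5 to 14 Lgr5 counts and is given no ratio. Of the 4 feedback genes with a ratio, only Rnf43 thus lay above 0 at 5 to 14 Lgr5 counts. That value rests on 30 collagen cells, its interval leaves out the spread between cells, and no alternative setting is given for these classes. A turn of Rnf43 toward collagen is therefore not established.

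Axin2 was higher with more Lgr5 in both cultures. From 0 to 1 to 4, 5 to 14 and 15 or more Lgr5 counts it stood at 8.44, 18.3, 40.2 and 46.0 CPM in collagen and at 58.9, 131, 171 and 224 CPM in Matrigel cells. The highest class held 12 collagen cells, too few to lean on. Rnf43 went from 31.6 over 41.2 and 79.5 to 91.9 CPM in collagen and from 30.2 over 45.2 and 55.6 to 76.2 CPM in Matrigel. Tcf7l2 showed no such order, with 86.1, 81.3, 96.2 and 79.1 CPM in collagen and 55.1, 39.6, 42.8 and 51.5 CPM in Matrigel. Its collagen level exceeded the Matrigel level in each of the 4 classes.

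**Figure D3:**
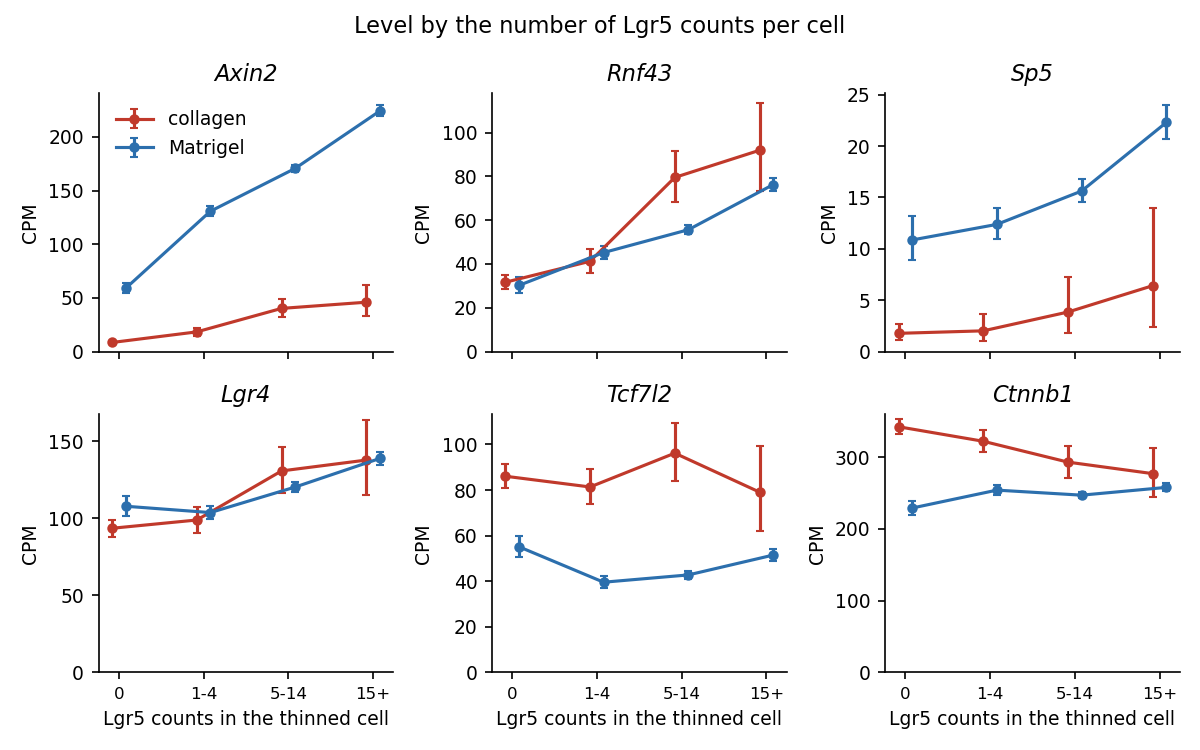
Level in CPM of 6 of the genes by the number of Lgr5 counts in the thinned cell, for collagen (red) and Matrigel (blue), with exact 95% Poisson intervals; the class of 15 or more holds 12 collagen cells. Axin2 and Sp5 lay lower in collagen in each class, and Tcf7l2 lay higher in each class. Rnf43 had a log2 ratio of 0.51 (0.24 to 0.77) toward collagen at 5 to 14 Lgr5 counts, from 30 collagen cells, and intervals on both sides of 0 in the other classes. The intervals leave out the spread between cells.

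Within a culture, cells with and without Lgr5 differed more in the median feedback gene than in the median receptor or effector gene. In Matrigel cells the log2 ratio of cells with over cells without Lgr5 was 1.59 (1.45 to 1.73) for Axin2, 0.96 (0.77 to 1.16) for Rnf43, 0.88 (0.51 to 1.25) for Znrf3, 0.60 (0.29 to 0.93) for Sp5 and -0.10 (-0.75 to 0.49) for Nkd1. The median was 0.88 for the 5 feedback genes and 0.01 for the 5 receptor and effector genes, beside 0.02 over all genes. At least 2-fold higher with Lgr5 was 1 of 5 feedback genes, Axin2, against 1.76% of the genes tested. Rnf43 joined it at full depth (1.23) and in another draw of the thinning (1.08), which made 2 of 5, while Znrf3 was 0.43 at full depth. Of the receptor and effector genes, Tcf7l2 was lower with Lgr5 at -0.29 (-0.45 to -0.13), and Lgr4 (0.18) and Ctnnb1 (0.14) were slightly higher.

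In collagen cells the ratio of Axin2 was 1.58 (1.14 to 2.02), close to that in Matrigel, and 2.30 at a hashtag share of 60%. Rnf43 had 0.83 (0.56 to 1.10). Sp5 had 0.52 (-0.33 to 1.35), or 1.13 in another draw of the thinning, and Znrf3 0.10 (-0.58 to 0.79), or 1.02 in that draw and -0.03 at a hashtag share of 60%, so neither is fixed at this depth. The medians were 0.52 for the feedback and -0.02 for the receptor and effector genes, beside 0.03 over all genes, and 1 of 5 feedback genes, Axin2, was at least 2-fold higher against 2.03% of the genes tested. That count depended on the setting: it was 3 in another draw of the thinning, where the feedback median was 1.02, and 2 at full depth, by the 60% hashtag rule and with at least 2 Lgr5 counts asked. Ctnnb1 was slightly lower with Lgr5, at -0.15 (-0.24 to -0.05), or -0.05 in another draw of the thinning. The gradient of Axin2 with Lgr5 was thus present in collagen cells at a lower level.

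Per cell, fewer feedback genes were found in collagen. The median number of the 5 with a count in a thinned cell was 1 over 264 collagen cells and 3 over 1477 Matrigel cells. None was found in 20.1% of collagen and 1.56% of Matrigel cells, and exactly 3 were found in 11.4% and 41.4%. Restricted to cells with Lgr5, none was found in 10.7% of 112 collagen and 0.665% of 1353 Matrigel cells. For the receptor and effector genes the median was 4 of 5 in both cultures, with all 5 found in 36.0% of collagen and 26.9% of Matrigel cells.

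**Figure D4:**
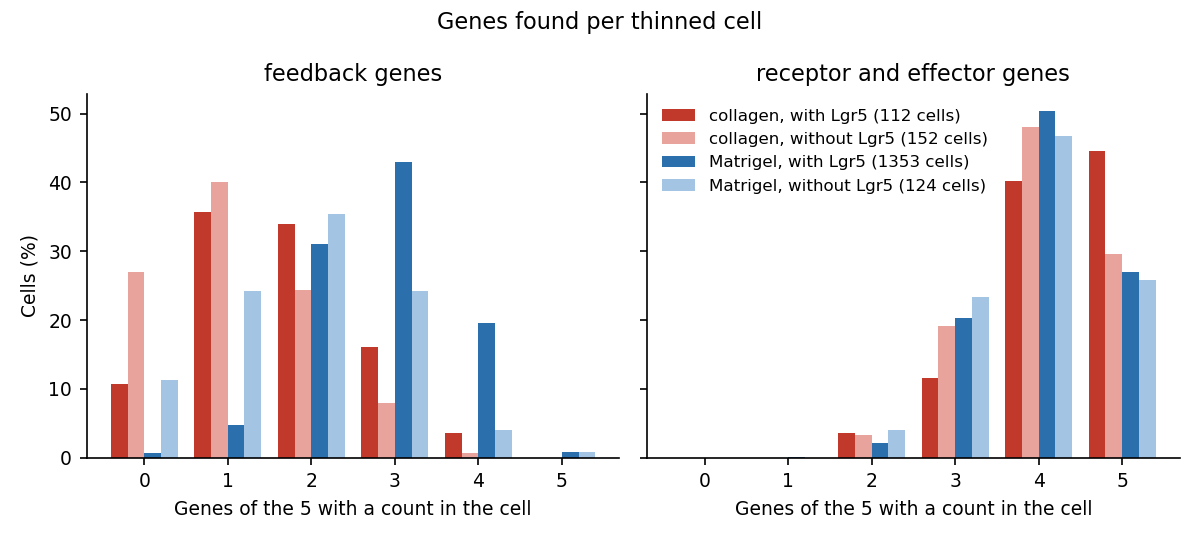
Share of thinned cells (%) by how many of the 5 feedback genes (left) or 5 receptor and effector genes (right) had a count, for collagen (red) and Matrigel (blue) cells with (dark) or without (light) Lgr5. Collagen cells with Lgr5 gathered at 1 and 2 feedback genes and Matrigel cells with Lgr5 at 2 and 3, while the right panel peaked at 4 or 5 in each class.

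Shares of cells were set beside the 74 thinned Matrigel cells, 5% of the culture, with the highest summed counts of 10 enterocyte markers, a range of a score and not a cell type, with 43 cells within 20% of its lower bound. Axin2 was found in 37.1% of collagen cells (31.3 to 43.3), 94.2% of Matrigel cells (92.9 to 95.3) and 45.9% of the enterocyte-high cells (34.3 to 57.9). Unthinned, the shares of the cultures were 41.7% and 94.7%. For Rnf43 the thinned shares were 67.8%, 87.3% and 68.9%, for Znrf3 21.2%, 42.7% and 27.0%, for Sp5 8.71%, 43.3% and 18.9%, and for Nkd1 1.89%, 3.72% and 2.7%. For all 5 feedback genes the collagen share was thus no higher than in Matrigel cells highest in enterocyte markers. Those cells have counts of these genes themselves, so they are a low reference and not a measure of free RNA, and shares at this level are not read as expression here. For Rnf43 the share went against the level, which was 42.4 CPM (39.6 to 45.3) in thinned collagen cells and 31.9 CPM (27.4 to 36.8) in the enterocyte-high cells, so no order is read from its shares.

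Of the receptor and effector genes, Lrp5 was found in 56.4% of collagen cells (50.2 to 62.5), 42.9% of Matrigel cells and 43.2% of the enterocyte-high cells. Lrp6 was found in 80.7%, 80.2% and 79.7%, Tcf7l2 in 83.0%, 79.2% and 85.1%, and Ctnnb1 in every thinned cell. Lgr4 was found in 93.2% of collagen cells (89.4 to 95.9), below the 98.9% of Matrigel cells (98.2 to 99.4) and the 98.6% of enterocyte-high cells. Median depths before thinning were 204305 counts in the enterocyte-high and 184348 in the other Matrigel cells. The level of Axin2 was 24.6 CPM (20.7 to 29.0) in the enterocyte-high cells, above the 16.4 CPM (14.7 to 18.2) of all thinned collagen cells, and that of Tcf7l2 was 67.9 CPM (61.4 to 75.0) there against 44.5 CPM in the other Matrigel cells.

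Because the cultures shared 1 library, RNA of Matrigel cells could reach collagen cells. Sfrp5, which encodes a secreted Wnt inhibitor, had 4 counts in collagen and 3679 in Matrigel cells, so its collagen level was 0.729% (0.192 to 1.93) of that in Matrigel. Axin2 at 9.33% and Sp5 at 12.6% (9.79 to 16.1) lay above that share. Sfrp5 was picked as the listed inhibitor with the largest ratio, so the comparison rests on 1 gene chosen by its values. Whether RNA from Matrigel cells would carry these genes in the proportions of those cells was not tested. Its part in the Axin2 and Sp5 counts was not tested either.

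**Figure D5:**
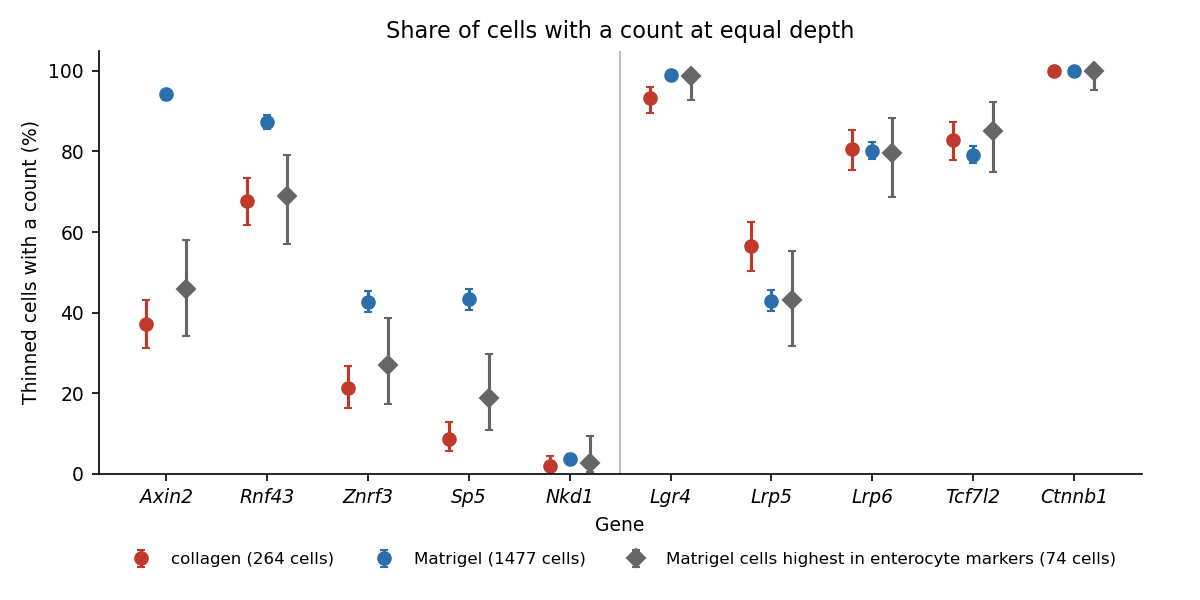
Share of thinned cells (%) with a count of each gene, with exact 95% binomial intervals, for 264 collagen cells (red), 1477 Matrigel cells (blue) and the 74 Matrigel cells highest in enterocyte markers (grey). For the feedback genes the collagen shares lay near or below the grey points, 37.1% against 45.9% for Axin2.

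Genes that varied with a member were sought over 1477 thinned Matrigel cells among 12066 genes found in at least 10% of them, as Pearson's r of log2(counts + 1). These cells share 1 library, and the values are descriptions. Axin2 was most like the crypt stem cell marker Olfm4 (r = 0.62, with low values of Olfm4 absent from the deposited table), Ifitm3 (0.58) and the ion cotransporter gene Slc12a2 (0.55), and had 0.49 with Lgr5. Rnf43 was most like Lgr5 (0.30), Axin2 (0.29) and Slc12a2 (0.27), and Sp5 had its highest values, also weak, with Axin2 (0.22), Rgmb (0.19) and Cdca7 (0.19). Ctnnb1 was most like Epcam (0.25), Ccnb2 (0.25) and Ptms (0.24). The highest values were 0.17 for Znrf3 (Gm20275), 0.16 for Nkd1 (Thbs1), 0.17 for Lgr4 (Jun), 0.11 for Lrp5 (Pgk1) and 0.14 for Lrp6 (Ankrd11), and these weak values are not described further. In 264 collagen cells, Axin2 had 0.36 with Lgr5 and 0.33 with Rnf43.

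The rest of the pathway was followed through 88 other genes in 9 lists, of which 46 reached 5 CPM in either culture. Of these 11 were at least 2-fold lower and 2 at least 2-fold higher in collagen cells, with a median log2 ratio of -0.03. The shares of all tested genes were 8.91% at least 2-fold lower and 8.21% at least 2-fold higher. None of 12 Wnt ligand genes and 4 R-spondin genes reached 5 CPM, with Wnt3, a Paneth cell ligand, at 1.69 and 2.63 CPM and Wnt7b at 3.05 and 0.448 CPM, the latter chosen after its values were seen. Both genes of ligand release were higher in collagen, with Porcn, which acylates Wnt proteins, at 11.2 and 4.17 CPM (log2 ratio 1.24) and Wls, which carries them to the surface, at 58.4 and 29.2 CPM (0.98).

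Of 7 receptor genes that reached 5 CPM, 3 lay at least 2-fold lower in collagen, against 8.91% of all tested genes. The other 4 lay within 2-fold. Fzd2 stood at 0.835 and 9.14 CPM, the co-receptor gene Ror2 at 5.62 and 21.1 CPM and Lgr5 at 33.0 and 134 CPM. Of all tested genes 17.1% were at least 2-fold apart. The 3 Dishevelled genes and the 10 genes of the destruction complex all lay within 2-fold, with medians of 0.07 and 0.12. Their largest differences were those of Dvl2 (9.21 and 6.96 CPM), Dvl3 (11.3 and 10.7 CPM), Dvl1 (22.5 and 22.8 CPM), Amer1 (5.77 and 11.7 CPM), Tnks2 (62.6 and 50.1 CPM) and Axin1 (36.2 and 44.0 CPM). Axin1, the constitutive relative of Axin2, had a log2 ratio of -0.27 (-0.37 to -0.18) where Axin2 had -3.34.

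Of 14 listed nuclear genes 10 reached 5 CPM, and 2 of these were at least 2-fold lower, against 8.91% of all tested genes. They were the co-repressor gene Tle3 (8.88 and 28.8 CPM, log2 ratio -1.59) and Tcf7, a TCF gene (3.82 and 12.8 CPM, -1.51). Bcl9 stood at 15.0 and 27.9 CPM (-0.86). Of 14 listed inhibitors 3 reached 5 CPM. Sfrp5 was at least 2-fold lower, at 0.0940 and 12.9 CPM, against 8.91% of all tested genes. Kremen2 was at least 2-fold higher, at 8.02 and 2.08 CPM, against 8.21%. Kremen1 lay within 2-fold, at 10.7 and 7.25 CPM. Of 19 listed target genes 13 reached 5 CPM. Lgr5 and Tcf7 also stand in the lists above, and Ascl2, Smoc2 and Cd44 also stand among the stem markers. The median over the 13 targets was -1.06. Of these targets 7 lay at least 2-fold lower, against 8.91% of all tested genes, and the other 6 lay within 2-fold. Ascl2, a stem cell transcription factor gene, stood at 2.44 and 43.7 CPM (-3.70), Rgmb at 15.8 and 83.2 CPM (-2.32) and Lgr5 at a ratio of -1.99. The targets Cd44 (62.7 and 58.2 CPM) and Ccnd2 (425 and 449 CPM), chosen after their values were seen, hardly differed.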

How the data were processed

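Single cells were captured on BD Rhapsody and amplified by TAS-Seq, per the labels' protocols. The tools named per the submitters' processing notes are STARsolo 2.7.10a, cutadapt 4.1 and R 4.2.1, with GRCm39 as the build, and the annotation, strand setting and collapsing of copies are not given in the sources used here. Expression values, as deposited, are expected counts for each gene in each cell, 75.6% of the values above 0 being whole (within 1e-06). In 104 genes the smallest value above 0 is over 3, and none of the 10 genes is among them. Hashtag values, as deposited, are whole counts of tags, and 9 columns of that table were not used.

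Cell names set the culture. A cell needed 500 genes and no more than 30% mitochondrial counts, so 16 Matrigel and 0 collagen cells were removed. Sums were scaled to 1000000 (CPM), with a pseudocount of 1 CPM in log2 ratios, and rounded for Poisson intervals. The calculation was tested on simulated Poisson sums. Known changes were placed only in genes whose mean level over the cultures was above those of Sp5, Znrf3, Nkd1, Lrp5 and Lrp6. That check does not cover ratios of such low genes. For thinning, rounded counts were drawn without replacement down to 77972 per cell, percentile 10 of the kept cells. Python 3.11.15, numpy 2.4.6 and scipy 1.17.1 were used, and edgeR 4.0.16 gave the TMM factors of 1 alternative. No doublet caller was run beyond the names deposited by the authors. Alternatives changed the scaling, thinning, culture assignment, cell filter, cell weights, pseudocount, fractions and Lgr5 threshold.

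The members, gene lists and rules were chosen with earlier results of these data known. Of each list the 3 genes reaching 5 CPM with the largest absolute log2 ratio are named, with the 3 genes most like each member where r is described. The genes most like Tcf7l2 are not reported here. Genes overlapping a member on the other build's annotation stood at up to 4.17 CPM (Ulk4, opposite Ctnnb1), whose reads cannot be told apart without a stated strand setting. The gene 1110028F11Rik, within Rnf43 on the same strand, stood at 3.54 CPM in collagen and 1.09 CPM in Matrigel. A strand setting alone would not tell its reads from those of Rnf43. Files on GRCm38 gave promoter sequences only, and no coordinates of counts are printed.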

Additional observations from a re-analysis of the deposited data

Results flagged for a closer look

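The ratio of Ctnnb1 by Lgr5 status had opposite signs in the cultures. The log2 ratio of thinned cells with over cells without an Lgr5 count was 0.14 (0.06 to 0.21) in Matrigel, with 252 against 229 CPM, and -0.15 (-0.24 to -0.05) in collagen, with 309 against 342 CPM. Each culture was 1 suspension, the difference between them was not tested, and both shifts were well under 2-fold. The intervals leave out the spread between cells. Thinned collagen cells had a mean of 24.1 counts (standard deviation 9.90) with Lgr5 and 26.7 (13.0) without. Opposite shifts are therefore not established. In another draw of the thinning the collagen ratio was -0.05 and the Matrigel ratio 0.16.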

How the results depend on the processing

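The counts of members at least 2-fold apart between the cultures, 3 feedback genes and 0 receptor and effector genes, were the same under all 8 alternatives to that comparison. Feedback genes at least 2-fold higher in cells with than without Lgr5 numbered 1 in each culture, but 2 in Matrigel at full depth and in another draw of the thinning, and in collagen 2 at full depth, with at least 2 Lgr5 counts asked and at a hashtag share of 60%, and 3 in another draw. The median log2 ratio of the receptor and effector genes was 0.36 with TMM scaling. Among cells with Lgr5, the feedback median was -2.08 with a pseudocount of 0.1 CPM, where 4 of 5 were at least 2-fold lower. That median is the value of Nkd1, which rests on 1 count in collagen. Among cells without Lgr5, the feedback median was -1.29 at full depth and -1.42 in another draw of the thinning. At full depth the ratio of cells with over without Lgr5 turned sign to 0.066 for the receptor and effector median in collagen (the value of Lrp6), to 0.030 for Tcf7l2 in collagen and to 0.079 for Lrp6 in Matrigel. For Znrf3 in collagen it was -0.026 at a hashtag share of 60%. The culture ratio of Rnf43 was 0.18 in cells with at least 2 Lgr5 counts and, without Lgr5, -0.034 at a hashtag share of 60%. The cause was not tested. Sp5, Znrf3 and Nkd1 had few counts in collagen cells (84, 223 and 16). No paired analysis was possible because each culture was 1 suspension and no test was run.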
